A study of Mus musculus with 38 samples.

Results

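Vhl, the 3 HIF alpha subunit genes (Hif1a, Epas1 and Hif3a), the genes of their dimer partners (Arnt and Arnt2) and the 4 genes of the oxygen-dependent HIF hydroxylases (Egln1, Egln2, Egln3 and Hif1an) were followed through the mouse RNAseq data. These 10 genes were taken by symbol from the 21705 genes of the table, and all 10 are listed in it. Each is described in 10 groups of libraries, with attention to the groups whose genotype lacks Vhl (VM and VIM) against those in which it is intact (MYC and normal kidney).

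The von Hippel-Lindau protein is the part of a ubiquitin ligase that recognises HIF alpha subunits. When oxygen is present, prolyl hydroxylases modify the alpha subunit, the ligase marks it and the proteasome removes it. When oxygen or the ligase is missing, the alpha subunit accumulates, pairs with ARNT and raises the transcription of genes for glycolysis, vessel growth and red cell production. Loss of VHL is the founding event of most human clear cell kidney cancers, and some genes of the pathway, among them hydroxylase genes, are themselves HIF targets.

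The study asked how MYC activation, Vhl loss and Ink4a/Arf loss act together in kidney tumours of engineered mice. The 38 libraries comprise 24 from cell lines, 9 from tumours and 5 from normal kidney. Cells of 3 tumour lines (MYC-2983, VM-3055 and VIM-3039) were collected 24 h after plating in 2 µg per ml doxycycline (Dox), which keeps the MYC transgene on, or without it, with 4 libraries in each of the 6 groups. The study derived and split its tumour lines in medium with 2 µg per ml Dox, and describes genes altered on Dox removal. The groups without Dox are therefore cells taken off it, and each Dox change is stated as with Dox against without. Estimated depth was 8.22 to 36.6 M reads per library, with a median of 15.2 M.

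MYC mice carry a Dox-dependent MYC transgene driven from the kidney cadherin (Ksp) promoter and have intact Vhl. VM mice carry in addition a conditional Vhl allele, deleted by a tamoxifen-activated Cre recombinase under the same promoter, so that only cells in which that promoter was active lose the gene. VIM mice further lack Ink4a and Arf in the germline, that is, in every cell. All tumours and lines therefore share the MYC transgene, and the tumours are labelled as maintained on Dox. The MYC tumour libraries come from 2 mice, numbers 2917 (1 library) and 2983 (2 libraries), and mouse 2983 is also the number of the MYC line. The VM tumours come from mice 3115, 3055 and 2459 and the VIM tumours from mice 3237, 3233 and 3130. In the study's naming, 3055 is also the number of the VM line. Normal kidney is wild type with vehicle treatment, in 2 libraries whose titles carry the letters B6 and 3 with the letters KT, and no ages are given in the labels. Each genotype is represented by 1 cell line, so line and genotype cannot be told apart. Nothing says whether the 4 libraries of a group are separate cultures, so the p-values for cells measure the spread between these libraries, which may be technical.

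Values are given in units, that is, read counts per gene scaled by the authors to a common upper quartile of 1000. One unit is close to 1 read (3 reads are 1.16 to 5.65 units, depending on the library). The test was limma on log2(value + 1), and passing means an adjusted p under 0.05 together with a log2 change beyond 1 in either direction. Libraries of one mouse were averaged before tissues were compared. The labelled tissues were checked with marker genes. The sum of 10 proximal tubule markers was 287700 to 402400 units in kidney and 2351 to 12410 in tumours, and 8 general renal epithelial markers summed to 6404 to 18630 units in the cell lines. The MYC-2983 line also carried a high sum of 10 fibroblast and mural markers, 16020 to 72340 units, against 88.3 to 5394 in the other lines. With Dox, 8 of the 9 tested were lower in each of those lines than in MYC-2983, and their part in the differences between lines was not tested. Cdkn2a, the Ink4a/Arf gene, was at 24.9 to 40.8 units in VIM-3039 cells and 3473 to 5701 in VM-3055 cells. The mouse Myc gene was lower with Dox than without in every line, with medians of 677 against 1845 units in MYC-2983, 392 against 1372 in VM-3055 and 366 against 1501 in VIM-3039 cells. It is not known whether reads of the transgene are counted in that row, so it is no check of the Dox labels. In tissue, fewer cells of a type and less RNA per cell cannot be told apart.

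**Figure D1:**
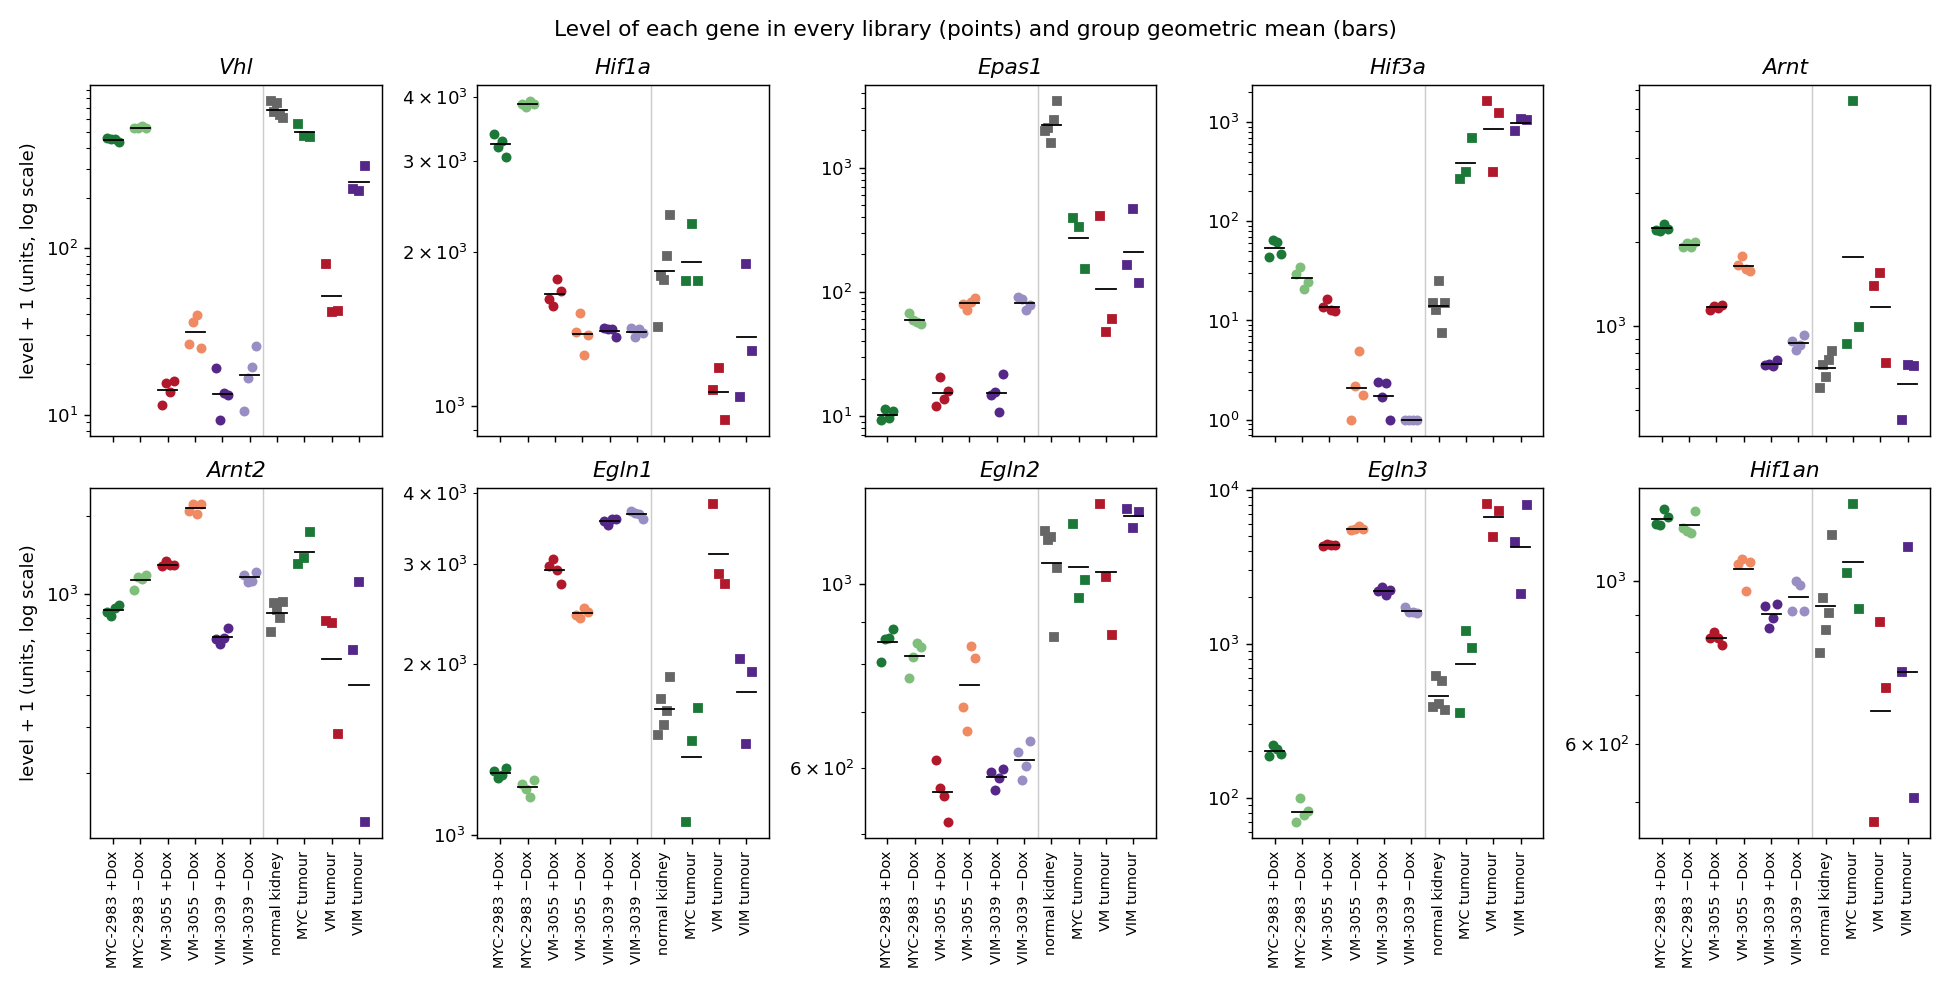
Level of each of the 10 genes in every library, in units plus 1 on a log scale that differs between panels; circles are cell line libraries, squares are tissue libraries and black bars are the geometric mean of the libraries in a group. Vhl and Egln3 separate VM and VIM from MYC and kidney in opposite directions. Epas1 is lower with Dox than without in each line, and a single MYC tumour library stands far above the others for Arnt.

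Vhl lies on the plus strand of chromosome 6, 113573953 to 113581627 in mm9, and its level is a check of the genotype labels. In MYC-2983 cells with Dox the 4 libraries had 461, 455, 456 and 433 units, and without Dox they had 533, 526, 543 and 529. In VM-3055 cells the values were 10.3, 14.5, 12.7 and 14.9 units with Dox and 25.6, 35.3, 38.8 and 24.3 without. In VIM-3039 cells they were 18.05, 8.32, 12.5 and 12.1 units with Dox and 9.49, 15.6, 18.4 and 24.9 without. Every library of the Vhl-deleted lines lay below every MYC-2983 library, by 32.3-fold in VM-3055 cells with Dox (log2 change −5.01, SE 0.12, adjusted p = 2.16e-13) and by 33.98-fold in VIM-3039 cells with Dox (adjusted p = 2.13e-12). A remainder of 8.32 to 38.8 units was thus still counted in the deleted lines. The table counts whole genes, so the exons from which these reads came are not resolved.

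The remainder was not the same under all conditions. It was 2.24-fold lower with Dox than without in VM-3055 cells (log2 change −1.17, SE 0.21, adjusted p = 9.20e-05), with no overlap between the groups. This call was lost with TMM rescaling (−0.95), with quantile normalization (−0.38) and with a pseudocount of 10 (−0.81), while the direction stayed. In MYC-2983 cells, where the gene is intact, Vhl was 1.18-fold lower with Dox, and in VIM-3039 cells the groups overlapped (log2 change −0.37, SE 0.29, adjusted p = 0.253).

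In tissue the order of Vhl was normal kidney, MYC tumour, VIM tumour, VM tumour. The 5 kidneys had 772, 661, 744, 638 and 612 units, and the MYC tumours had 560 units in mouse 2917 and 471 and 468 in the 2 libraries of mouse 2983. The VIM tumours had 226, 219 and 312 units and the VM tumours had 79.9, 40.2 and 40.7. These library ranges do not overlap, although MYC tumour and kidney did not differ by the test (log2 change −0.41, SE 0.28, adjusted p = 0.268). Vhl was 13.2-fold lower in VM tumours than in kidney (adjusted p = 2.39e-07) and 2.73-fold lower in VIM tumours (adjusted p = 3.45e-04). VIM tumours kept 4.83-fold more Vhl than VM tumours (log2 change 2.27, SE 0.28, adjusted p = 0.00148, which became 0.134 with only these 2 groups in the fit), and their difference from MYC tumours missed the threshold (log2 change −1.04, adjusted p = 0.0716), which it passed with voom on the recovered reads (−1.07, adjusted p = 0.0360). The sum of 10 leukocyte markers, from cells that keep their Vhl, was 9557 to 17220 units in VIM tumours, 2797 to 10190 in VM tumours and 4654 to 20310 in MYC tumours. Its part in the Vhl level was not tested. The library with the most Vhl among the VIM tumours (mouse 3130, 312 units) had the lowest leukocyte sum of the 3, and among the VM tumours the highest Vhl (mouse 3115, 79.9 units) went with the highest leukocyte sum.

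Seen over all groups, the tumours of the deleted genotypes lay above their cell lines. VM-3055 cells without Dox (24.3 to 38.8 units) came close to VM tumours (40.2 to 79.9), whereas VIM-3039 cells and VIM tumours were far apart. The library ranges of VM-3055 and VIM-3039 cells overlapped both with and without Dox (log2 change without Dox −0.87, and −1.07 with adjusted p = 0.00201 without 1 VIM library). The genes whose 10 group means followed those of Vhl most closely were Fam174b (Pearson r = 0.967), Tmem108 (r = 0.966) and Irx2 (r = 0.965), out of 13354 genes compared. Irx2 averaged 299 units in MYC-2983 cells with Dox and 0.213 in VM-3055 cells with Dox.

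Of the HIF alpha subunits, Hif1a encodes HIF-1α, which most cell types make. It lies on the plus strand of chromosome 12, 75002362 to 75048517, and an annotated lincRNA, Gm15283, overlaps it on the opposite strand. Its level was 3063 to 3399 units in MYC-2983 cells with Dox and 3837 to 3936 without, against 1564 to 1766 and 1258 to 1520 in VM-3055 cells and 1366 to 1419 and 1364 to 1418 in VIM-3039 cells. Both Vhl-deleted lines thus lay below the MYC-2983 line in every library. Hif1a was 2.31-fold lower in VIM-3039 than in MYC-2983 cells with Dox (log2 change −1.21, SE 0.03, adjusted p = 2.66e-13). In VM-3055 cells it was 1.96-fold lower with Dox, just under the change required, and 2.81-fold lower without. In tissue none of the comparisons of Hif1a passed, with 1424 to 2359 units in kidney, 1751 to 2268 in MYC tumours, 941 to 1189 in VM tumours and 1043 to 1889 in VIM tumours. The VM tumours lay below all kidneys (log2 change −0.79, SE 0.20, adjusted p = 0.00591), a difference that missed only the change required. They also lay below all MYC tumours (−0.81, SE 0.25, adjusted p = 0.1285).

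Epas1, on the plus strand of chromosome 17, 87153247 to 87232750, encodes HIF-2α, the alpha subunit of endothelial cells and of the kidney's erythropoietin-producing interstitial cells, and the one most often tied to growth of VHL-deficient kidney cancer. In MYC-2983 cells the libraries had 8.39, 10.3, 8.67 and 9.96 units with Dox and 66.9, 57.9, 56.7 and 53.9 without. VM-3055 cells had 11.1, 19.6, 12.7 and 14.9 units with Dox and 79.4, 70.2, 82.2 and 88.9 without. VIM-3039 cells had 13.9, 14.6, 9.84 and 21.004 units with Dox and 90.2, 87.0, 70.4 and 78.0 without. In all 3 lines the groups with and without Dox were far apart.

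Epas1 was the one gene of the 10 that passed in the Dox comparison of every line. It was 5.79-fold lower with Dox in MYC-2983 cells (log2 change −2.53, SE 0.16, adjusted p = 3.41e-11), 5.30-fold lower in VM-3055 cells (adjusted p = 1.46e-09) and 5.35-fold lower in VIM-3039 cells (adjusted p = 3.94e-10). The Dox changes did not differ between lines by more than their error. The differences were 0.13 (SE 0.24) for VM-3055 minus MYC-2983, 0.11 (SE 0.27) for VIM-3039 minus MYC-2983 and −0.01 (SE 0.29) for VIM-3039 minus VM-3055 on the log2 scale. Fibroblast and mural markers moved with Epas1. Their sum was 16020 to 18810 units with Dox and 67910 to 72340 without in MYC-2983 cells, 88.3 to 113 and 637 to 719 in VM-3055 cells, and 498 to 680 and 4857 to 5394 in VIM-3039 cells. Of those tested, 6 of 9, 4 of 7 and 3 of 5 were lower with Dox and 0 higher, and their part in the Epas1 difference was not tested. Of all genes, 19.5, 24.8 and 24.3% passed. Most of these were lower too, with 2264 lower and 678 higher, 2707 and 847, and 2322 and 1074. At a given Dox state, Epas1 was slightly higher in the Vhl-deleted lines than in MYC-2983 cells, by 0.44 to 0.57 on the log2 scale, which is under the change required. With Dox that difference passed under quantile normalization (1.67 and 1.63).

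In tissue Epas1 ranged more widely. The 5 kidneys had 1952, 2077, 1576, 2427 and 3440 units. The MYC tumours had 396, 333 and 151 units, the VM tumours 405, 46.4 and 59.2 and the VIM tumours 164, 461 and 117. No tumour library reached the lowest kidney, and the VM tumours of mice 3055 and 2459 lay within or below the range of the cell lines without Dox. Epas1 was 7.41-fold lower in MYC tumours (log2 change −2.89, SE 0.71, adjusted p = 0.00558), 21.1-fold lower in VM tumours (adjusted p = 7.10e-05) and 10.6-fold lower in VIM tumours (adjusted p = 5.56e-04) than in kidney. The tumour groups overlapped, but without the VM tumour of mouse 3115 Epas1 passed as lower in VM than in MYC tumours (log2 change −2.49, adjusted p = 0.0346). The MYC tumour call was lost without mouse 2983 (adjusted p = 0.0736) and against the 2 kidneys with the letters B6 alone (adjusted p = 0.0705).

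Markers of other cell types moved with Epas1. The sum of 10 endothelial markers was 5492 to 9574 units in kidney, 330 to 3140 in tumours and 16.98 to 66.5 in the cell lines. All 10 markers were tested in tissue, and 8, 7 and 8 of them were lower in MYC, VM and VIM tumours than in kidney, with 1 higher in VIM tumours. Of all genes, 33, 37.7 and 37.3% passed in these comparisons, higher or lower. Among the VM tumours, mouse 3115 had both the highest Epas1 (405 units) and the highest endothelial sum (3140), but among the VIM tumours the library with the highest Epas1 (mouse 3233, 461 units) had 1373, below the 1562 of mouse 3130. The proximal tubule sum fell in the same contrast. The part of either cell type in the Epas1 level of tissue was not tested. In the cell lines the endothelial sum was 25.0 to 36.8 units with Dox and 49.2 to 66.5 without in MYC-2983 cells, and 16.98 to 21.9 with and 22.1 to 33.3 without in VM-3055 cells, while the ranges overlapped in VIM-3039 cells. Tie1, Emcn and Cldn5 were at 0 in every MYC-2983 library with Dox.

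**Figure D2:**
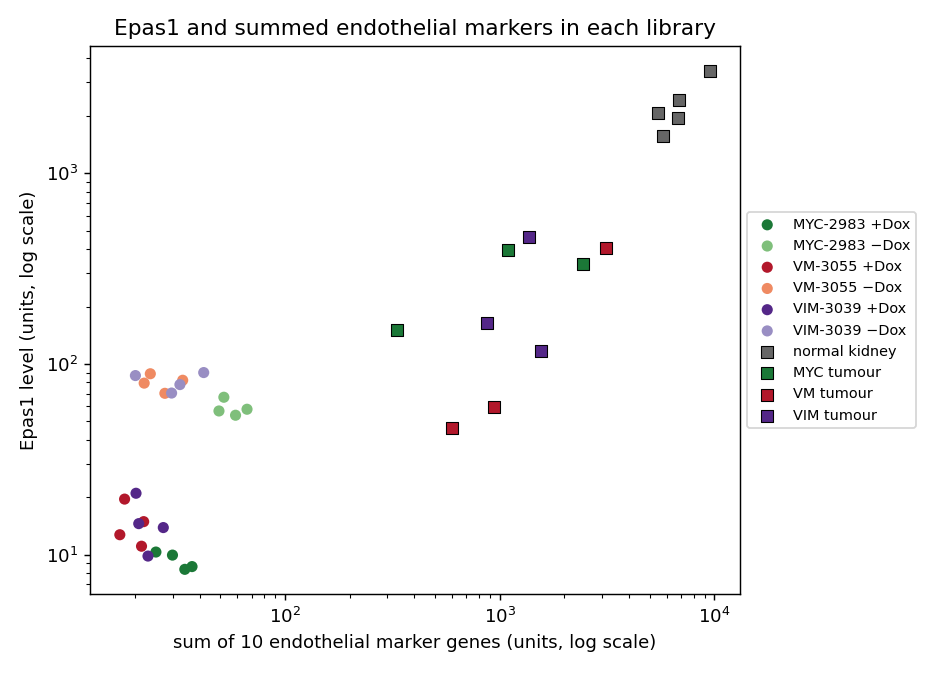
Epas1 level against the sum of 10 endothelial marker genes in each library, both in units on log scales; circles are cell lines and squares are tissue. Kidney lies at the upper right, tumours at lower values of both, and the cell lines at the left split into a higher band without Dox (53.9 to 90.2 units of Epas1) and a lower band with Dox (8.39 to 21.004 units), with marker sums that were also lower with Dox in MYC-2983 and VM-3055 cells.

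Hif1a and Epas1 can be set against each other per length. With 5.90 kb of annotated exon for Hif1a and 5.31 kb for Epas1, the median level per kb in kidney was 304 units for Hif1a and 391 for Epas1. In MYC-2983 cells with Dox it was 551 units per kb for Hif1a and 1.75 for Epas1. The ratio of Epas1 to Hif1a within a library was taken with 1 unit added to each level. Only through that addition does it depend on scaling. It was 0.893 to 1.46 in kidney, 0.0398 to 0.378 in tumour mice, 0.0141 to 0.0661 in cells without Dox and 0.00276 to 0.0161 in cells with Dox. The exact permutation test gave p = 0.0286 for the Dox change in each line, the smallest value that 4 against 4 libraries allow (adjusted p = 0.0429 over 24 tests of 3 ratios). Against kidney the ratio was lower in VM and VIM tumours (exact permutation p = 0.0357 each, adjusted p = 0.0429), while 2 MYC mice against 5 kidneys cannot go below 0.0952. Among the genes closest to Epas1 in their 10 group means were Serinc3 (r = 0.987) and Camk2n1 (r = 0.986). Camk2n1 averaged 2616 units in kidney and 18.2 in VIM-3039 cells with Dox.

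Hif3a, on the minus strand of chromosome 7, 17616856 to 17647776, encodes HIF-3α, whose splice forms include inhibitors of the other alpha subunits. Its pattern set the cell lines and tumours apart. The 5 kidneys had 13.8, 11.7, 24.1, 6.51 and 13.9 units. The MYC tumours had 268, 313 and 684 units, the VM tumours 1639, 314 and 1239 and the VIM tumours 817, 1086 and 1039. Every tumour library exceeded every kidney by far. Hif3a was 25.3-fold higher in MYC tumours (log2 change 4.66, SE 0.58, adjusted p = 4.50e-05), 61.8-fold higher in VM tumours (adjusted p = 1.30e-06) and 69.8-fold higher in VIM tumours (adjusted p = 1.37e-06). The rise was thus measured in tumours with intact and with deleted Vhl. The further difference of VM and VIM from MYC tumours did not pass (log2 change 1.29 with SE 0.63, adjusted p = 0.325, and 1.47 with SE 0.63, adjusted p = 0.178).

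The cell lines had far less Hif3a than the tumours. MYC-2983 cells had 43.0, 64.2, 61.2 and 45.6 units with Dox and 28.2, 33.6, 19.7 and 23.4 without. VM-3055 cells had 12.6, 15.3, 11.9 and 11.4 units with Dox and 0, 1.16, 3.88 and 0.760 without, which is at most 5 reads in a library. VIM-3039 cells had at most 2 reads in a library with Dox and 0 in all 4 libraries without. With Dox, MYC-2983 cells were at least 25.0-fold higher than VIM-3039 cells, counted against 3 reads per library. Among lines, the order was thus MYC-2983, VM-3055, VIM-3039 at both Dox states, though VM-3055 and VIM-3039 cells could not be told apart at this depth without Dox.

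Hif3a was 2.01-fold higher with Dox than without in MYC-2983 cells (log2 change 1.01, SE 0.18, adjusted p = 4.78e-05). This change falls just under the threshold when any of 4 of the 8 libraries is left out (0.88 to 0.96). Hif3a was higher with Dox in VM-3055 cells too (log2 change 2.72, SE 0.40, adjusted p = 6.56e-06), where the size rests on libraries with 0 to 5 reads and depends on the pseudocount. It could not be tested in VIM-3039 cells. The genes closest to Hif3a over the 10 groups were 1500017E21Rik (r = 0.971), Ppp1r3c (r = 0.969) and Ntpcr (r = 0.969). Ppp1r3c, a glycogen-targeting subunit of protein phosphatase, averaged 34.7 units in kidney, 206 in MYC, 596 in VM and 854 in VIM tumours.

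Arnt encodes the constitutive partner of the alpha subunits and lies on the plus strand of chromosome 3, 95238310 to 95301162. Its kidney libraries had 597, 720, 655, 752 and 810 units, the VM tumours 1385, 1545 and 735 and the VIM tumours 460, 724 and 714. The MYC tumour of mouse 2917 had 857 units, while the 2 libraries of mouse 2983 had 6414 and 989. The first of these is 6.48-fold above the second, from the same mouse. Arnt passed as higher in MYC tumours than in kidney (log2 change 1.06, SE 0.37, adjusted p = 0.0360), but this rests on that library. With it set aside the change was 0.39 (adjusted p = 0.282), and without mouse 2983 it was 0.29 (adjusted p = 0.623). Leaving out any of 4 of the 5 kidneys also ended the call (adjusted p = 0.0515 to 0.0657). Without the VM tumour of mouse 2459, Arnt passed as higher in VM tumours than in kidney (log2 change 1.06, adjusted p = 0.0239), and without mouse 2917 it passed as lower in VIM than in MYC tumours (−2.02, adjusted p = 0.0432).

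The high value was not that of Arnt alone. Between the 2 libraries of mouse 2983, 45 of the 49 genes within 1 Mb of Arnt (mean level of at least 50 units) were more than 2-fold higher in the library with high Arnt, with a median of 4.35-fold, against 11.7% of the 11440 genes compared. Only Adamtsl4 was lower, at 435 against 545 units. Setdb1, a histone methyltransferase gene, and Mcl1, a survival factor of the BCL2 family, lie in this stretch. Against all 8 other tumour libraries the median of 47 neighbours was 2.01 on the log2 scale. No other member in any tumour library had neighbours that stood apart as far (the next were 0.73 for Arnt2 in the VIM tumour of mouse 3130 and 0.62 for Hif1an in mouse 2917). This was looked for after the Arnt value had been seen, and its cause was not tested.

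**Figure D3:**
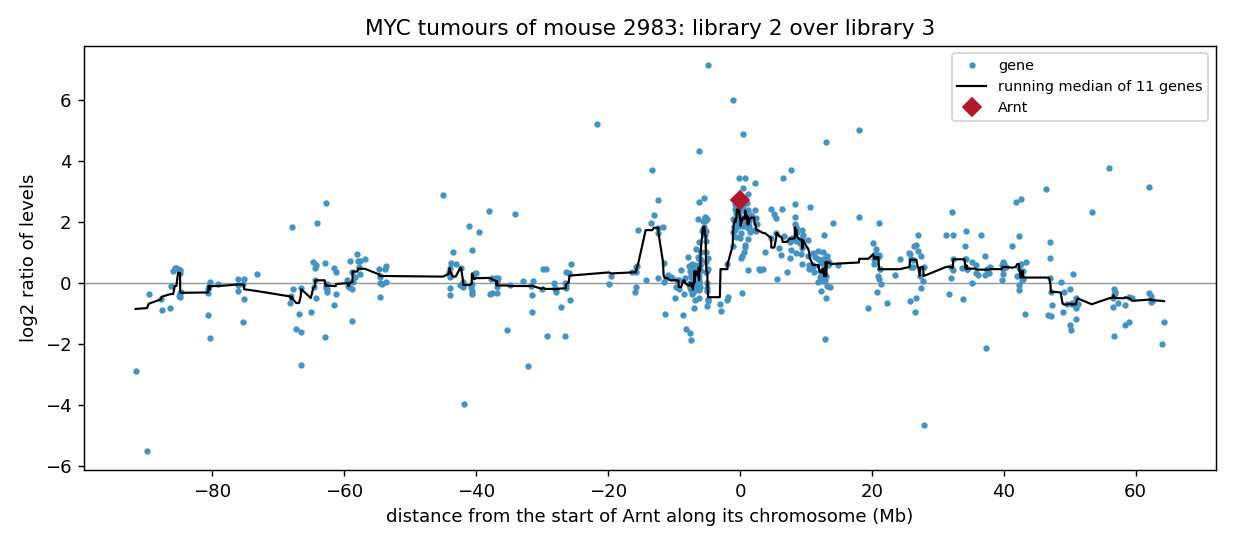
log2 ratio of the levels in the 2 MYC tumour libraries of mouse 2983 for genes along the chromosome of Arnt, by distance in Mb from the start of Arnt; points are genes averaging 50 units or more, the line is the running median of 11 genes and the diamond is Arnt at 2.70. The running median reaches about 2 around Arnt, where nearly all genes within 1 Mb lie above 0.

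In the cell lines Arnt was 2188 to 2323 units in MYC-2983, 1139 to 1189 in VM-3055 and 713 to 751 in VIM-3039 cells with Dox, 3 ranges that do not overlap. It was 3.06-fold lower in VIM-3039 than in MYC-2983 cells with Dox (log2 change −1.61, SE 0.03, adjusted p = 7.39e-15) and 2.24-fold lower without (adjusted p = 6.91e-13). In VM-3055 cells the difference with Dox was −0.94 and did not pass.

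Arnt2, on the minus strand of chromosome 7, 91394791 to 91558469, encodes a related partner that is best known from neurons and kidney. It was measured at 634 to 2241 units in all cell line libraries and passed in no comparison. Its largest difference between lines was −0.94 in VIM-3039 minus VM-3055 cells with Dox (SE 0.04, adjusted p = 1.31e-11). In VM-3055 minus MYC-2983 cells without Dox it was 0.93 (SE 0.05, adjusted p = 3.54e-10), which TMM rescaling (1.01) and quantile normalization (1.001) moved just past the threshold. In tissue the kidneys had 706 to 922 units and the VM tumours 282 to 783, both below the MYC tumours (1304 to 1734). The VIM tumours ranged widely at 603, 1112 and 127 units. Without the VIM tumour of mouse 3233, the gene passed as lower in VIM tumours than in kidney (log2 change −1.59, adjusted p = 0.0216) and than in MYC tumours (−2.35, adjusted p = 0.0246). The ratio of Arnt2 to Arnt was 1.06 to 1.32 in kidney and 0.385 to 0.566 in VM tumours (exact permutation p = 0.0357, adjusted p = 0.0429). With Dox the ratio was 0.374 to 0.405 in MYC-2983, 1.08 to 1.14 in VM-3055 and 0.869 to 0.980 in VIM-3039 cells, and both differences from MYC-2983 reached the smallest exact p of 0.0286.

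The 4 hydroxylase genes behaved unlike each other. The start regions of 3 of them are given here because Egln3 passed as higher in both Vhl-deleted lines and both deleted tumour groups, Egln1 in both lines and in VM against MYC tumours, and Egln2 in none of these. They are the 250 bases before the RefSeq start in the GRCm38.p6 build, read on the gene's strand, with ACGTG and GCGTG in capitals. These are the core letters of the sequence that HIF dimers bind, searched on both strands, so that CACGT and CACGC are capitals too.
Egln3, chr12:54203875-54204124, minus strand: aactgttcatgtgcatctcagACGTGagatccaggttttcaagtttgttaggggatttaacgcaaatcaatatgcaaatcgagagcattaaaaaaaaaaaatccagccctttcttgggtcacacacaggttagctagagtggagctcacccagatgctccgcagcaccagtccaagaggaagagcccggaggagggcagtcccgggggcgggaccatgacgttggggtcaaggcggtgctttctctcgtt
Egln1, chr8:124949255-124949504, minus strand: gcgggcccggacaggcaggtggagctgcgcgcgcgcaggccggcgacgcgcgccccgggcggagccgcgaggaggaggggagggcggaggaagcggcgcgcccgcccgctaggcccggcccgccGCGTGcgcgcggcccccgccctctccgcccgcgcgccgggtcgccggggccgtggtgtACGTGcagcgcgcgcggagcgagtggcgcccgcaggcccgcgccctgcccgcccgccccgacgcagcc
Egln2, chr7:27166803-27167052, minus strand: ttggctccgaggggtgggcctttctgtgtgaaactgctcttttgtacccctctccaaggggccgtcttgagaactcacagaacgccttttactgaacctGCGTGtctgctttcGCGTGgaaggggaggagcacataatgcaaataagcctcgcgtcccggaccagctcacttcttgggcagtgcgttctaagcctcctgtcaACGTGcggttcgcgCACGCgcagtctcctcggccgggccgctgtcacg
One match lies in the Egln3 window at −229 from the start, 2 in Egln1 at −126 and −68, and 4 in Egln2 at −151, −137, −48 and −34. Another RefSeq start of Egln2, whose window is not printed, has 1 match at −116. Either motif is found in 38.6% of all 32851 windows of this length in the table, and in those of 6 of the 9 genes that have one there. ACGTG alone is in 16.6%. CACGTG, the E-box letters that MYC dimers bind and that contain ACGTG, is in 6.02% of all windows. Among the 9 genes with a window it is in that of Hif1a alone. Epas1 has no window there and was not searched. A match is a match of letters only.

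Egln3, on the minus strand of chromosome 12, 55279968 to 55304847, encodes PHD3, a prolyl hydroxylase that is itself a textbook HIF target. The MYC-2983 libraries had 187, 220, 206 and 192 units with Dox and 68.2, 98.7, 76.4 and 81.1 without. VM-3055 cells had 4286, 4452, 4384 and 4397 units with Dox and 5466, 5550, 5798 and 5575 without. VIM-3039 cells had 2187, 2351, 2086 and 2242 units with Dox and 1724, 1610, 1605 and 1579 without. The lines are thus fully separated, in the order VM-3055, VIM-3039, MYC-2983 at both Dox states.

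With Dox, Egln3 was 21.7-fold higher in VM-3055 (log2 change 4.44, SE 0.05, adjusted p = 1.26e-16) and 10.97-fold higher in VIM-3039 cells (log2 change 3.46, SE 0.05, adjusted p = 1.02e-15) than in MYC-2983 cells. Without Dox the differences were 68.8-fold and 20.03-fold. VIM-3039 cells had 3.44-fold less than VM-3055 cells without Dox (adjusted p = 1.16e-15) and 1.98-fold less with Dox, which is just under the threshold and passed with TMM rescaling (−1.001). The Dox change of the gene was not the same in the lines. Egln3 was 2.48-fold higher with Dox than without in MYC-2983 cells (log2 change 1.31, SE 0.10, adjusted p = 8.49e-10). The changes were −0.35 (SE 0.04) in VM-3055 and 0.44 (SE 0.04) in VIM-3039 cells. The Dox change differed between VM-3055 and MYC-2983 cells by −1.67 (SE 0.10, adjusted p = 8.82e-11).

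In tissue the kidneys had 388, 613, 404, 570 and 369 units of Egln3. The MYC tumours had 356, 1204 and 938 units, the VM tumours 8108, 4896 and 7253 and the VIM tumours 4580, 2091 and 7956. All VM and VIM tumours lay above all MYC tumours and kidneys, and MYC tumours overlapped kidney (log2 change 0.42, SE 0.47, adjusted p = 0.509). Egln3 was 14.4-fold higher in VM tumours (adjusted p = 8.30e-06) and 9.23-fold higher in VIM tumours (adjusted p = 3.98e-05) than in kidney. Against MYC tumours it was 10.7-fold (log2 change 3.42, SE 0.52, adjusted p = 0.00618) and 6.88-fold higher (log2 change 2.78, SE 0.52, adjusted p = 0.0171). Without mouse 2917 these changes were 2.64 (adjusted p = 0.0584) and 1.996 (adjusted p = 0.115), and without the VIM tumour of mouse 3237 the latter was 2.73 (adjusted p = 0.0596). With only the 2 groups compared in the fit, the adjusted p was 0.137 for VM and 0.235 for VIM, and with the B6 kidneys alone it was 0.0662 for VIM.

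**Figure D4:**
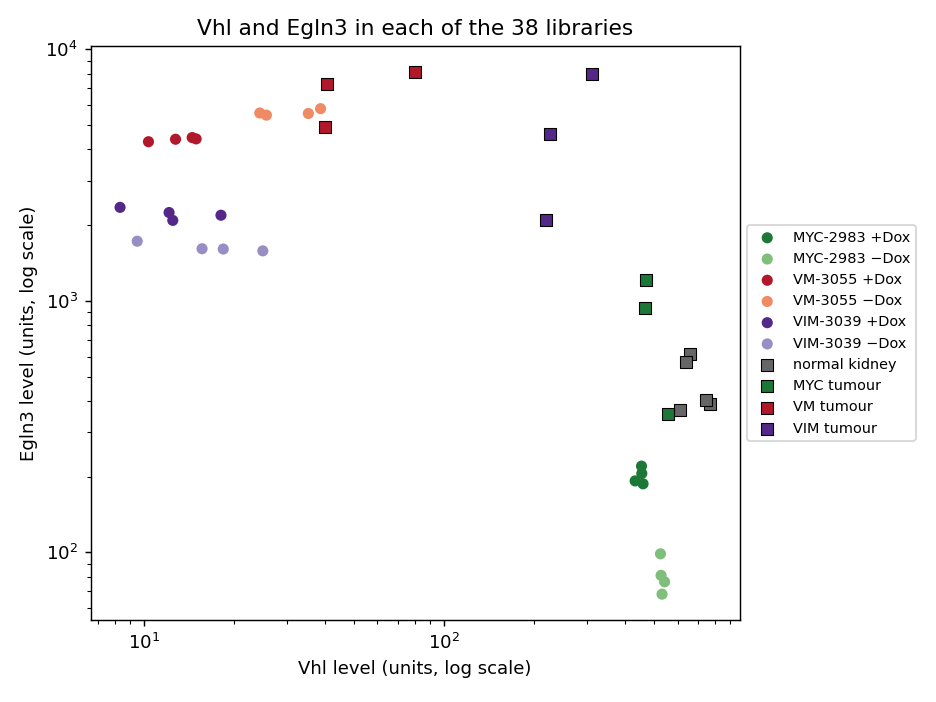
Egln3 against Vhl in each of the 38 libraries, both in units on log scales; circles are cell lines and squares are tissue. Libraries of VM and VIM genotype have at most 312 units of Vhl and at least 1579 of Egln3, and those of MYC cells, MYC tumours and kidney have at least 433 of Vhl and at most 1204 of Egln3.

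VIM tumours had 4.83-fold more Vhl than VM tumours, while their Egln3 was not distinguishable from that of VM tumours (log2 change −0.64, SE 0.46, adjusted p = 0.518). The genes closest to Egln3 over the 10 groups were Xlr (r = 0.976), Tpi1 (r = 0.962) and Pip5k1b (r = 0.949). Tpi1, a glycolytic enzyme gene, averaged 22976 units in VM-3055 and 9001 in MYC-2983 cells with Dox.

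Egln1, on the minus strand of chromosome 8, 127432496 to 127473154, encodes PHD2, the main prolyl hydroxylase of HIF-1α under normal oxygen. It had 1260 to 1313 units in MYC-2983 cells with Dox, 2766 to 3058 in VM-3055 and 3505 to 3596 in VIM-3039 cells. Here the order of the deleted lines was the reverse of that of Egln3. Egln1 was 2.27-fold higher in VM-3055 (log2 change 1.19, SE 0.03, adjusted p = 1.12e-12) and 2.77-fold higher in VIM-3039 cells (adjusted p = 3.57e-15), and without Dox the differences were 2.03-fold and 3.03-fold. Its Dox change was no more than 0.25 on the log2 scale in any line. In tissue the VM tumours (3828, 2876 and 2768 units) stood above all kidneys (1500 to 1894), MYC tumours (1051 to 1674) and VIM tumours (1446 to 2040). VM tumours minus kidney was 0.91 (SE 0.18, adjusted p = 9.69e-04), which is under the change required. It passed with quantile normalization (1.09) and with the B6 kidneys alone (1.03). VIM minus VM tumours was −0.81 (SE 0.20, adjusted p = 0.04965), also under that change. Egln1 was 2.43-fold higher in VM than in MYC tumours (log2 change 1.28, SE 0.22, adjusted p = 0.0139). That call was lost without mouse 2917 (change 0.997, adjusted p = 0.121) with the B6 kidneys alone (adjusted p = 0.0672) and with only the 2 groups in the fit (adjusted p = 0.180). VIM tumours were not shown to differ from MYC tumours (0.48, SE 0.22, adjusted p = 0.212).

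The balance of the 2 genes differed between the deleted lines and MYC-2983 cells with Dox, and between VM or VIM tumours and kidney. The ratio of Egln3 to Egln1 within a library was 0.145 to 0.175 in MYC-2983, 1.44 to 1.59 in VM-3055 and 0.580 to 0.671 in VIM-3039 cells with Dox. In kidney it was 0.196 to 0.355, in VM tumours 1.70 to 2.62 and in VIM tumours 1.45 to 4.12, without overlap (exact permutation p = 0.0357 for each tumour group, adjusted p = 0.0429). The MYC tumour mice had 0.340 and 0.679 (exact permutation p = 0.286 against kidney, where the smallest possible is 0.0952). The ratio in VM and VIM tumours was not tested against MYC tumours. Per kb of annotated exon, median Egln3 was 152 units and Egln1 470 in kidney, while in VM tumours Egln3 was 2725 and Egln1 818.

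Egln2, on the minus strand of chromosome 7, 27943677 to 27951821, encodes PHD1, and its annotation overlaps Cyp2t4 by 11 bases on the opposite strand. It passed in no comparison. It had 515 to 882 units in cells and 862 to 1248 in tissue. Its largest difference was −0.60 in VM-3055 minus MYC-2983 cells with Dox (SE 0.05, adjusted p = 9.68e-08).

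Hif1an, on the plus strand of chromosome 19, 44637340 to 44650764, encodes the asparagine hydroxylase FIH, which blocks the binding of coactivators to HIF alpha. It did not pass in any comparison either, with 818 to 1255 units in cells and 467 to 1275 in tissue. The largest difference between cell groups was −0.54, again in VM-3055 minus MYC-2983 cells with Dox (SE 0.03, adjusted p = 1.77e-09), and in tissue −0.66 in VM minus MYC tumours (SE 0.32, adjusted p = 0.315).

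**Figure D5:**
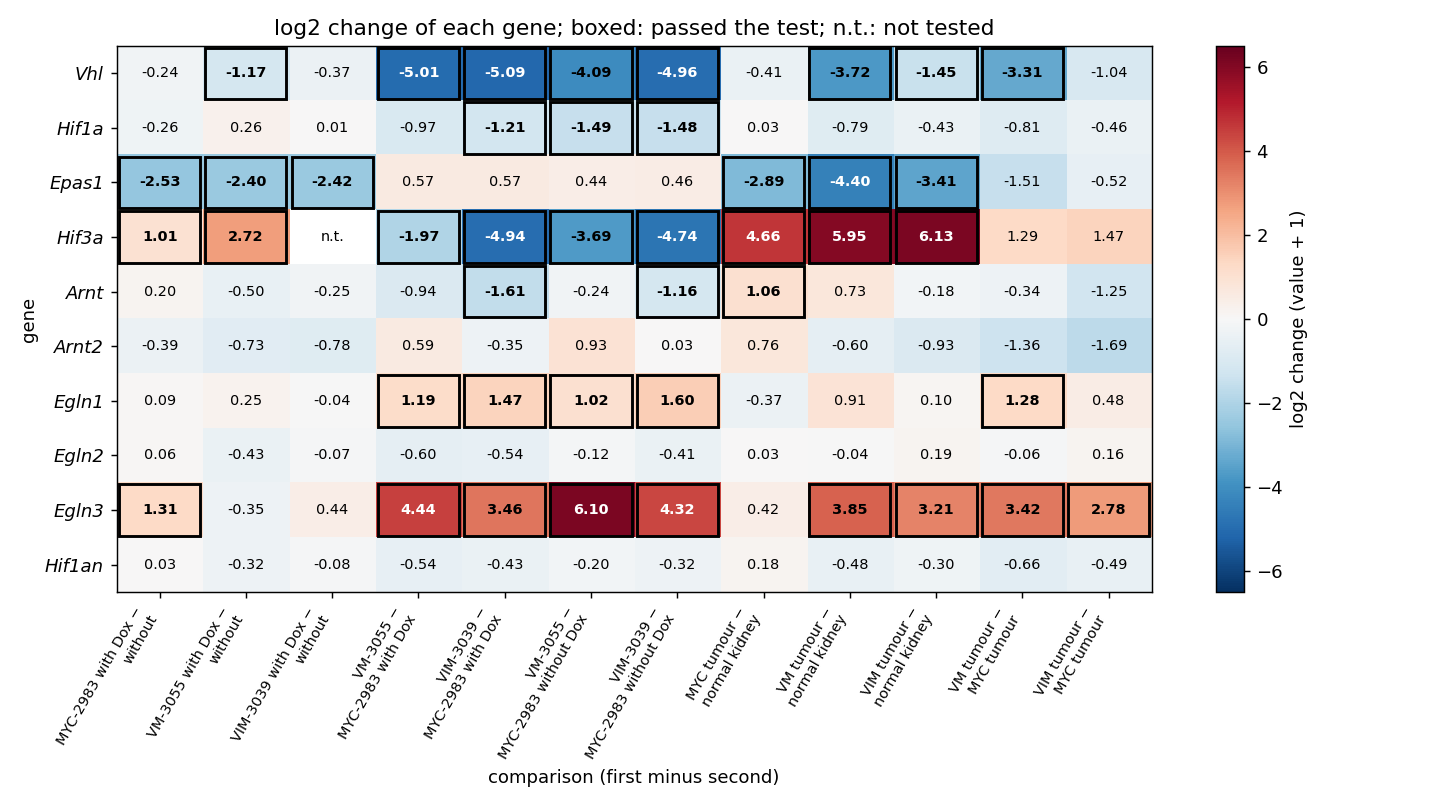
log2 change of the 10 genes (rows) in 12 comparisons (columns, first group minus second), printed and coloured from blue (lower) to red (higher); boxes mark changes that passed the test and n.t. marks the one not tested. The Dox columns share lower Epas1 with Dox, and the line columns share lower Vhl and higher Egln1 and Egln3. Hif3a is lower in the deleted lines but higher in all tumours than in kidney.

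Counted over the comparisons, the 10 genes are to be read against the share of all tested genes that passed. With Dox against without, 3 of 10 passed in MYC-2983 cells (19.5% of all genes tested) and 3 of 10 in VM-3055 cells (24.8%), while 1 of 9 did so in VIM-3039 cells (24.3%). With Dox, 4 of 10 passed in VM-3055 against MYC-2983 cells (24.6%), 6 of 10 in VIM-3039 against MYC-2983 cells (23.9%) and 1 of 10 between VIM-3039 and VM-3055 cells (19.1%). Without Dox these counts were 5 of 10 (24.9%), 6 of 10 (26.2%) and 1 of 9 (21.7%). The Dox change itself differed for 2 of 10 genes between VM-3055 and MYC-2983 cells (8.78%), 0 of 10 between VIM-3039 and MYC-2983 cells (9.06%) and 1 of 10 between VIM-3039 and VM-3055 cells (6.05%). For the count of 0, limma had an unadjusted p under 0.05 for 6 of the 10 genes, and voom on the recovered reads passed 0. In tissue, 3 of 10 passed in MYC tumours against kidney (33%), 4 of 10 in VM tumours (37.7%) and 4 of 10 in VIM tumours (37.3%). Between tumours, 3 of 10 passed in VM against MYC (1.97%), 1 of 10 in VIM against MYC (3.91%) and 1 of 10 in VIM against VM (2.79%). These counts include Vhl, the gene deleted by design in VM and VIM. It was among those that passed in every comparison of the deleted lines with MYC-2983 cells. It was also among them in VM and VIM tumours against kidney and in VM against MYC tumours. In VIM against VM tumours it was the 1 that passed. In the Dox and kidney comparisons the members' share is near that of all genes. Comparisons that use the same MYC-2983, kidney or MYC tumour libraries share those samples.

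The other genes of the pathway were taken from lists. Of 11 symbols for VHL ligase partners, which include the elongins, Cul2 and Rbx1, 9 are in the table and 0 passed in any of the 18 comparisons, with a largest absolute log2 change of 0.87 in limma. From 0 to 8 of the 9 had an unadjusted p under 0.05, depending on the comparison. In VM-3055 minus MYC-2983 cells with Dox their median change was 0.06, against −0.19 for all genes. In VM tumours minus kidney it was 0.24, against −0.03.

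Of 16 cofactor and stability factor genes, 15 were tested in the line comparisons with Dox against MYC-2983. In VM-3055 cells 1 was higher (6.67% passed, against 24.6% of all genes), and in VIM-3039 cells 2 were higher and 1 lower (20% against 23.9%), so the shares were below those of all genes. Cited1 was higher in both (log2 changes 1.49 and 1.601), and Cited2, which competes with HIF alpha for p300 and CBP, was higher in VIM-3039 cells (1.02). With Dox, Os9 was lower in VM-3055 cells (−1.29) and Cited2 in VIM-3039 cells (−1.21). Cited2 was higher than in kidney in MYC, VM and VIM tumours (1.71, 1.57 and 1.51). Of the 16 genes, 3 were higher and 3 lower in MYC tumours, 3 and 3 in VM and 4 and 3 in VIM tumours. These are 37.5, 37.5 and 43.8%, against 33, 37.7 and 37.3% of all genes.

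Of 11 other prolyl and lysyl hydroxylase genes, most of which act on collagen, P4ha2 stood out in tissue. It averaged 402 units in kidney, 1111 in MYC, 4579 in VM and 2773 in VIM tumours. It was higher in VM and VIM than in MYC tumours (log2 changes 2.14, SE 0.29, adjusted p = 0.00332, and 1.45, SE 0.29, adjusted p = 0.0214), the one gene of the list that passed there. With only the 2 groups compared in the fit, 0 genes of the whole table passed in VM against MYC tumours. The call of P4ha2 in VM tumours was thus lost there. In VIM against MYC tumours 1 gene of all passed in that fit. In the cell lines P4ha2 did not separate VM-3055 from MYC-2983 cells with Dox. There 5 of the 11 genes were lower and 0 higher, led by Plod1 (−3.09). That is 45.5% of the list against 24.6% of all genes, of which 2668 were lower and 967 higher.

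The 11 other genes of the bHLH-PAS family, relatives of the HIF subunits, included 3 that were lower and 1 that was higher with Dox in MYC-2983 cells (36.4% passed, against 19.5% of all genes), and 4 that were lower in VM-3055 (40% against 24.8%) and in VIM-3039 cells (36.4% against 24.3%). Arntl, the partner of Clock in the circadian oscillator, was lower with Dox in all 3 lines (log2 changes −1.20, −1.33 and −1.36). Sim2 and Ahrr were lower in both deleted lines than in MYC-2983 cells with Dox (Sim2 −3.54 in VM-3055 and −1.85 in VIM-3039).

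Of 28 HIF target genes from general knowledge, 9 were higher and 1 lower of 27 tested in VM-3055 against MYC-2983 cells with Dox (median change 0.72, against −0.19 for all genes), and 14 were higher and 1 lower in VIM-3039 cells (median 1.04, against −0.18). These are 37 and 55.6% of those tested, against 24.6 and 23.9% of all genes. Without Dox 13 were higher and 2 lower in VM-3055 and 13 higher and 3 lower in VIM-3039 cells. The shares were then 55.6 and 59.3%, against 24.9 and 26.2% of all genes. Bnip3, a mitophagy receptor, was higher in both lines with Dox (log2 changes 3.10 and 3.07), as were Vegfa (1.97 and 1.77) and Pdk1, which diverts pyruvate from the mitochondria (1.99 and 1.66). Car9, the carbonic anhydrase used as a marker of VHL loss, was higher in VM-3055 cells (281 against 11.2 units, log2 change 4.57) but not in VIM-3039 cells (7.72 units).

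In tissue, 6 of the 28 targets were higher and 3 lower in MYC tumours than in kidney, 16 higher and 1 lower in VM tumours and 15 higher and 4 lower in VIM tumours, with medians of 0.14, 1.48 and 1.23 against 0.08, −0.03 and 0 for all genes. The shares that passed were 32.1, 60.7 and 67.9%, against 33, 37.7 and 37.3% of all genes, so that of MYC tumours was at the level of all genes. Against MYC tumours, 4 were higher in VM tumours (Hk2 2.42, Pgk1 1.74, Ldha 1.70 and Aldoa 1.46) and 3 in VIM tumours (Pgk1 1.76, Ldha 1.69 and Aldoa 1.36), all of glycolysis, and none was lower. These are 14.3 and 10.7% of the list, against 1.97 and 3.91% of all genes. With only the 2 groups compared in the fit, 0 genes of the whole table passed in VM against MYC tumours. In VIM against MYC tumours 1 gene of all passed in that fit. The calls in VM tumours were thus all lost there. Hk2 was lower in VIM than in VM tumours (log2 change −2.63, SE 0.37, adjusted p = 0.00337). Vegfa, named here after its values were seen, was lower than in kidney in MYC (log2 change −1.59) and VIM tumours (−1.05), with −0.74 in VM tumours, which did not pass. The list was not chosen independently of these data.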

How the data were processed

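RNA of 38 mouse libraries (24 cell line, 9 tumour and 5 kidney) had been sequenced from a stranded kit. The authors aligned reads to mm9 with MapSplice and quantified genes with RSEM (processing notes also name SAMtools and Picard 1.64). The deposited values (unit: signal) are these gene quantities scaled by the authors to an upper quartile of 1000 per library. Strand use in counting is not given in the sources used here. Low values were whole multiples of 1 read (94.1 to 95.9% of values under 20 reads lay within 0.02 reads), which gave depths of 8.22 to 36.6 M reads. Intervals and floors (3 reads per library) cover counting error only.

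Groups came from the labels, and the numbers of the VM and VIM lines from the study. limma 3.58.1 in R 4.3.3 was run on log2(value + 1), which understates changes of low genes, over genes above 0 in at least 4 cell libraries or 2 mice, with Benjamini-Hochberg adjustment over all genes tested. Libraries of one mouse were averaged. Within-library ratios, all of value + 1, were compared by exact two-sided permutation tests (scipy 1.17.1). The code was tested on simulated data. No 2 libraries were identical, and variance over read noise was 1.39 to 3.18 in cell groups, 10.2 in kidney and 25.4 to 30 in tumours. The 10 genes and all lists were chosen with earlier results of these data known. Named were all members, up to 4 passing genes per list and comparison with the largest change and a mean of at least 50 units, and the 3 genes most like Vhl, Epas1, Hif3a and Egln3, of which 1 is not reported here. Alternatives covered the pseudocount, filters, scaling, voom on recovered reads, the samples in the fit, kidney subsets, the replicate block and leaving out each library. Deviations of same-numbered libraries had mean correlations of −0.05 to 0.04, which cannot settle whether the numbers pair samples. Gene positions are those of GENCODE for mm9, and promoter sequences those of RefSeq for GRCm38.p6, found for 9 of 10 genes.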

Additional observations from a re-analysis of the deposited data

Results flagged for a closer look

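The Dox change of Egln3 differed between VM-3055 and MYC-2983 cells by −1.67 on the log2 scale (limma interaction, adjusted p = 8.82e-11), with 4 libraries in each group. That of Hif3a differed by 1.72 between VM-3055 and MYC-2983 cells (adjusted p = 0.0044) and by −1.92 between VIM-3039 and VM-3055 cells (adjusted p = 0.00856), and both Hif3a values rest on libraries with 0 to 5 reads.

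One library stood apart from its group. In VIM-3039 cells with Dox, replicate 4 had 1366 units of Hif1a, against 1411, 1413 and 1419 in the others. It was the 1 found in 69 groups examined, where chance gives about 1 in 20.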

How the results depend on the processing

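No change that passed, as reported or under an alternative, had the opposite direction in the other fit. For changes that passed in neither, the direction was not compared. Setting aside the tumour library with high Arnt was chosen after seeing the data. Counts of the 10 genes that passed moved as follows. For the difference in Dox change between VIM-3039 and VM-3055 the count of 1 became 0 with pseudocounts of 0.1 and 10 and with a minimum mean of 10 units, and for VM-3055 minus MYC-2983 the 2 became 1 with a pseudocount of 10. For VIM-3039 minus VM-3055 with Dox the 1 became 0 with the minimum mean of 10 and 2 with TMM, and without Dox it became 2 with all 6 cell groups in one fit. The Dox change between VIM-3039 and MYC-2983 went from 0 to 1 under quantile normalization. With only the compared tissue groups in the fit, VM minus MYC tumour went from 3 to 0, VIM minus MYC from 1 to 0 and VIM minus VM from 1 to 0. VIM minus MYC tumour became 2 with voom and 0 with the B6 kidneys, with which MYC tumour minus kidney went from 3 to 1. The cause was not tested.

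Leaving out 1 library or mouse gave, for Dox, 2 to 3 (MYC-2983), 3 to 3 (VM-3055) and 1 to 1 (VIM-3039). Between lines with Dox it gave 4 to 4 (VM-3055 minus MYC-2983), 6 to 6 (VIM-3039 minus MYC-2983) and 1 to 2 (VIM-3039 minus VM-3055), and without Dox 5 to 5, 5 to 6 and 1 to 2. The differences in Dox change gave 2 to 3, 0 to 0 and 1 to 1. Against kidney it gave 1 to 3 (MYC), 4 to 5 (VM) and 4 to 5 (VIM), and between tumours 1 to 4 (VM minus MYC), 0 to 2 (VIM minus MYC) and 1 to 1 (VIM minus VM). A lone MYC mouse was assumed to vary like the other tissue groups. The replicate block left every member call as it was (3 for Dox in VM-3055, 1 for Dox in VIM-3039), with 3572 genes in all against 3554 and 3397 against 3396.

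Over all genes, a pseudocount of 10 lowered the calls in cells to 1936 from 2942 for Dox in MYC-2983 cells, to 2314 from 3635, 2198 from 3515 and 1653 from 2691 between lines with Dox, to 2522 from 3784 and 1981 from 3141 without, and to 675 from 1389, 674 from 1416 and 458 from 918 for the differences in Dox change. A minimum mean of 10 gave 2342 for VIM-3039 minus MYC-2983 with Dox and 856, 854 and 541 for the differences. The 337, 669 and 477 calls between tumours became 196, 374 and 265 with no filter, 0, 1 and 40 with 2 groups in the fit, 72, 84 and 85 with the B6 kidneys, and 144, 204 and 206 with the KT kidneys. They were 510 and 1274 with the 3 MYC libraries separate, and 122 to 527, 105 to 2149 and 208 to 710 with 1 left out. The share of calls that were higher moved from 23.8 to 39.7% (VM-3055, Dox) and 31.6 to 42.1% (VIM-3039, Dox) under TMM. Under quantile normalization it reached 42, 48.4 and 49.3% for Dox, 52.1 and 48.2% for the deleted lines against MYC-2983 with Dox and 51.9 and 48.5% without, 47.6 and 48.8% for differences in Dox change and 51.8 and 52.3% for VM minus MYC and VIM minus VM tumours. The median of all genes shifted by up to 0.203 (TMM) and 0.254 (quantile).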

Other observations

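The stretch around Arnt was not the only one that differed between the 2 MYC tumour libraries of mouse 2983. Of 842 windows of 2 Mb with at least 10 genes, 22 had a median more than 2-fold higher in the library with high Arnt. Neighbouring windows overlap, so the 22 are not separate stretches, and windows lower in that library were not counted. All 22 lie on 2 chromosomes of mm9, 9 of them on chromosome 3 between 93 and 106 Mb (median log2 ratios 1.31 to 2.12) and 13 on chromosome 4 between 139 and 157 Mb (1.03 to 1.54). Neither span is covered without gaps. These windows were examined after the Arnt value had been seen, and the cause was not tested.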
